A study of Mus musculus with 6 samples.

Results

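The TEAD transcription factors and the cofactors that act on them were followed at the RNA level in C2C12 cells, a mouse myoblast line, with and without depletion of Adamtsl2. The set was named by gene symbol: Tead1, Tead2, Tead3 and Tead4, the coactivators Yap1 and Wwtr1 (the gene of TAZ), the TEAD-binding cofactors Vgll2, Vgll3 and Vgll4, and the angiomotin-like gene Amotl2. All 10 symbols were found among the 16854 genes of the table. Confluent cells were placed in 2% horse serum, which starts differentiation, and RNA was taken on day 3. The control group, labelled scramble, had 3 libraries. The knockdown group had 3 libraries from myoblasts in which a short hairpin RNA, expressed stably, depletes Adamtsl2, a secreted glycoprotein of the extracellular matrix. Nothing in the labels says whether the cells of a group were a clone or a pool, or whether replicates came from separate cultures, so the tests measure the spread between these libraries, which may be technical. The labels do not give the number of hairpins used, and off-target effects of a hairpin cannot be told apart from depletion of Adamtsl2. The comparison asks what the loss of Adamtsl2 does to cells on the way to myotubes.

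TEAD proteins bind DNA at a short element known as M-CAT, whose core reads CATTCC, but activate transcription poorly on their own. The coactivators YAP and TAZ bind TEADs in the nucleus and switch on target genes, while the Hippo kinases (MST and LATS) phosphorylate YAP and TAZ and keep them in the cytoplasm. VGLL proteins bind TEADs at an overlapping surface: VGLL2 is enriched in skeletal muscle and works with TEADs on muscle genes, VGLL3 has been linked to muscle differentiation, and VGLL4 competes with YAP and represses. In muscle, TEAD4 is known as a factor induced by the myogenic regulators during differentiation, and M-CAT elements were first described in muscle promoters. AMOTL2 binds YAP at cell junctions and is itself a widely used YAP/TEAD target gene.

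The 6 libraries held 37346439 to 50329438 reads assigned to genes, above the 20000000 to 30000000 reads per library that the labels' protocol states, and whether the mates of a pair were counted separately is not given. The values below are the deposited ones, reads scaled by 1 factor per library, called normalised counts. Adamtsl2 itself stood at 1325, 1266 and 1307 in the control libraries and at 23.2, 21.7 and 7.83 in the knockdown libraries. Knockdown library 3 stood apart: its log2 values correlated with those of knockdown libraries 1 and 2 across genes at r = 0.917 and 0.920, against 0.996 between those 2 libraries. For 9 of the 10 genes of the set it had the lowest knockdown value, where 49% of all 16245 genes tested did. Among all tested genes whose mean reached 100, its values stood at a median of 87.8% of the mean of knockdown libraries 1 and 2. The values of the set are therefore given with and without it.

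The M-CAT core was looked for in the 250 bases before the RefSeq starts of these genes (GRCm38.p6), because it shows which of them carry the letters that TEADs read. RefSeq start windows were at hand for 8 of the 10 genes, with none for Tead1 and Tead4. The letters CATTCC, or GGAATG when read on the other strand, occurred in the windows of 8 of the 11 starts of these genes, some of which overlap, and so in 6 of the 8 genes. They occurred in 12.6% of all 32851 start windows and in 11% of those of the genes tested. The matches are shown with 12 bases on either side, in the direction of the gene, with the 6 matching letters in capitals. A match is a description of the sequence and not a binding site. Of the 250 bases before the starts shown, some lay in annotated exons. These were 136 for Amotl2, 17 for Yap1 and 12 for Tead3, with 0 for Wwtr1, Vgll3 and Vgll4.
Tead3 (chr17:28350970-28350999, minus strand, 182 bases before the start): gacgacgagcgaGGAATGgggtgcgcggga
Yap1 (chr9:8004720-8004749, minus strand, 141 bases before the start): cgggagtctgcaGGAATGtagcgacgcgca
Wwtr1 (chr3:57576029-57576058, minus strand, 136 bases before the start): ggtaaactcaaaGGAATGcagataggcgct
Vgll3 (chr16:65815114-65815143, plus strand, 63 bases before the start): cccgcctccccaCATTCCggctaccctgcc
Vgll4 (chr6:114969268-114969297, minus strand, 82 bases before the start): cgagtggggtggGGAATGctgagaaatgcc
Amotl2 (chr9:102717727-102717756, plus strand, 65 bases before the start): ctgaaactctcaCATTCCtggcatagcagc
Tead3 had 3 annotated starts and a further pair of matches before its second start. Of the 250 bases before that second start, 217 lay in annotated exons, and all 250 before the third start did. Wwtr1 had 2 starts, which share their match. Tead2 and Vgll2 had no match in this window. The whole window of Vgll2, the gene with the lowest knockdown values of the set, is shown with its only E-box (CANNTG, a form that reads the same on both strands) in capitals. It reads CACGTG, and the forms CAGCTG and CACCTG had no match in this window. An E-box occurred in 66.2% of all start windows.
Vgll2 (chr10:52022252-52022501, plus strand): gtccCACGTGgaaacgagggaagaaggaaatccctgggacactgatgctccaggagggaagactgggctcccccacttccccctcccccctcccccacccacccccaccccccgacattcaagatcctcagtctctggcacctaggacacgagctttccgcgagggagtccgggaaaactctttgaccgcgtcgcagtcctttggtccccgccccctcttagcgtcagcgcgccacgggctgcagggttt

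Among the TEAD factors, Tead4 fell most, Tead2 and Tead1 fell less, and Tead3 did not pass the test. Tead4 (ENSMUSG00000030353, GRCm38 chromosome 6, 128224288 to 128300823, minus strand, protein-coding) had normalised counts of 7397, 7458 and 6903 in the control and of 420, 364 and 140 in the knockdown libraries. All knockdown values lay far below all control values. The means were 7253 ± 304 and 308 ± 148 (SD, n = 3 each), a 23.6-fold lower level, with a log2 change of -4.70 ± 0.42 (SE) and an adjusted p of 3.2e-04. Log2 changes here and below are knockdown minus control on the scale log2(value + 1), tested with limma and adjusted by Benjamini-Hochberg over all genes. Without knockdown library 3 the log2 change of Tead4 was -4.21 ± 0.07.

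Tead2, a TEAD best known from early embryos and neural precursors, had control counts of 1677, 1708 and 1728 and knockdown counts of 712, 615 and 443. The groups did not overlap, and the log2 change was -1.56 ± 0.19 (adjusted p = 0.0012), or -1.36 ± 0.07 without knockdown library 3. Tead1, a broadly expressed TEAD that also acts in heart and skeletal muscle, had control counts of 7991, 7865 and 6924 and knockdown counts of 5667, 5332 and 3852. Its groups were also apart, with a log2 change of -0.63 ± 0.18 (adjusted p = 0.031). That call was lost, at adjusted p values of 0.057 to 0.114, when any control library or knockdown library 2 was left out, and the log2 change was -0.46 ± 0.07 without knockdown library 3. Tead3, a TEAD known from placenta and many other tissues, had control counts of 1747, 1833 and 1747 and knockdown counts of 1743, 1700 and 637. Knockdown libraries 1 and 2 lay just under the control libraries and library 3 far under them, and the log2 change of -0.52 ± 0.40 did not pass (adjusted p = 0.33, 95% interval -1.50 to 0.46). Without library 3 it was -0.04 ± 0.05.

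**Figure D1:**
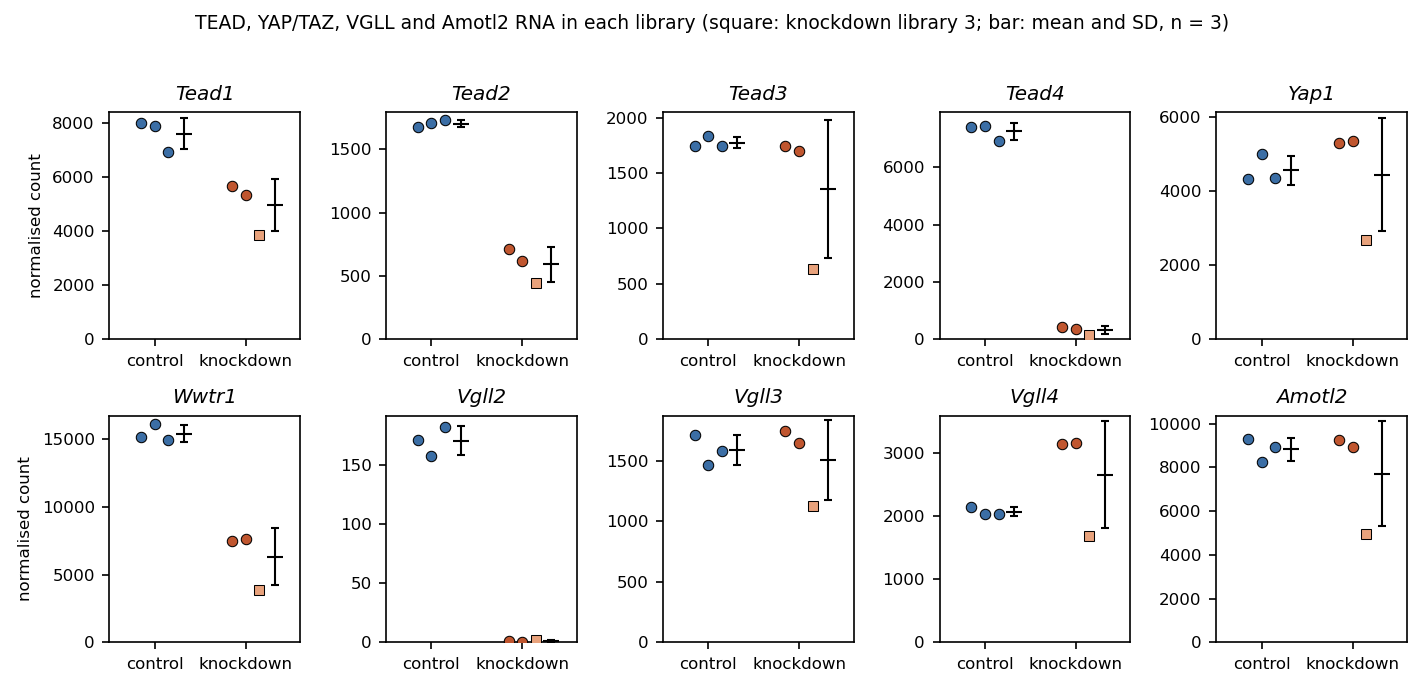
Normalised counts of the 10 genes in each library, 1 panel per gene with its own linear axis from 0; points are libraries, squares mark knockdown library 3, and bars give the mean and SD of 3 libraries. Tead4 and Vgll2 lie near 0 in all knockdown libraries, while Yap1, Vgll3, Vgll4 and Amotl2 overlap between the groups.

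Because the paralogs differed in their change, the makeup of the TEAD RNA pool differed between the groups. Per kilobase of exonic length, a scale on which genes can be compared, Tead4 was the most abundant TEAD in control cells at 2016 ± 84.6, followed by Tead1 at 560 ± 43.0, Tead2 at 356 ± 5.40 and Tead3 at 264 ± 7.38 (SD, n = 3). In knockdown cells Tead1 led at 365 ± 71.2, ahead of Tead3 at 203 ± 93.3, Tead2 at 123 ± 28.5 and Tead4 at 85.5 ± 41.2. The neighbours Tead3 and Tead2, and Tead2 and Tead4, overlapped in their knockdown libraries, and no neighbours among the TEADs overlapped in the control. With the longest transcript as length, however, Tead3 came before Tead2 in the control and overlapped with it. In knockdown cells Tead1 still led with that length, at 497 ± 96.9, but overlapped with Tead3 at 395 ± 182. Tead4 made up 63.2, 63.2 and 62.9% of the summed TEAD level in the control libraries and 12.4, 11.5 and 7.61% in the knockdown libraries. Tead1 made up 16.7 to 18.1% and 44.3 to 55.7%. Such shares are formed within a library, so they do not depend on its size factor.

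The summed TEAD level per kilobase was 3255, 3282 and 3050 in control and 943, 876 and 510 in knockdown libraries, a 4.12-fold lower mean, or 3.52-fold lower without knockdown library 3. Leaving Tead4 out of the sum, the other TEADs together stood at 1180 ± 42.3 in control and 691 ± 192 in knockdown cells (SD, n = 3). An exact two-sided permutation test gave p = 0.1 for each of these and the other sums, shares and ratios reported here (10 measures, Benjamini-Hochberg adjusted p = 0.1), the smallest value that 3 against 3 libraries allow, so none can pass a threshold of 0.05. For each measure, the 3 knockdown libraries lay on the same side of all 3 control libraries.

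**Figure D2:**
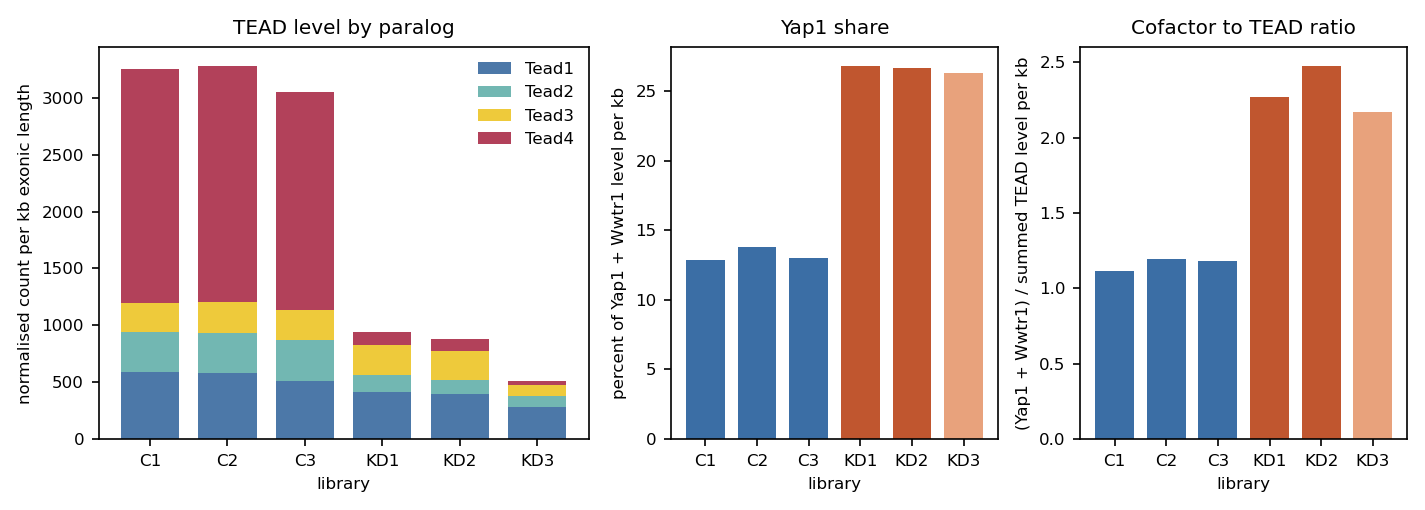
Left, the normalised count per kilobase of each TEAD paralog, stacked, in control (C1 to C3) and knockdown (KD1 to KD3) libraries; middle, the percent of Yap1 in the Yap1 plus Wwtr1 level; right, the ratio of that level to the summed TEAD level. Tead4 is the largest block in each control library and the smallest in each knockdown library, and both ratios are higher in all 3 knockdown libraries.

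The coactivators differed from each other. Wwtr1, the gene of TAZ (ENSMUSG00000027803, chromosome 3, 57455649 to 57575910, minus strand), had control counts of 15146, 16147 and 14974 and knockdown counts of 7476, 7603 and 3895. Its groups were well apart, with a 2.44-fold lower mean and a log2 change of -1.35 ± 0.28 (adjusted p = 0.0098), or -1.03 ± 0.05 without knockdown library 3. Yap1 (ENSMUSG00000053110, chromosome 9, 7931999 to 8004596, minus strand) had control counts of 4332, 5014 and 4347 and knockdown counts of 5307, 5355 and 2689. Knockdown libraries 1 and 2 lay above all control libraries and library 3 below them. The log2 change of Yap1 with 6 libraries was -0.10 ± 0.29 (adjusted p = 0.80, 95% interval -0.81 to 0.61). Without library 3 its direction turned, to 0.23 ± 0.07 (adjusted p = 0.0096).

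Within each library, however, the balance of the pair was steady. Per kilobase, Yap1 made up 12.9, 13.8 and 13.0% of the Yap1 plus Wwtr1 level in control libraries and 26.8, 26.7 and 26.3% in knockdown libraries, library 3 included. The mean share of Yap1 was 2.01 times as large in the knockdown. TAZ RNA was the more abundant of the pair in both groups, at 3227 ± 133 per kilobase in control and 1323 ± 441 in knockdown cells (SD, n = 3). Both coactivators together stood at 3720 ± 174 per kilobase in control and 1804 ± 605 in knockdown cells. Their ratio to the summed TEAD level in the same library was 1.12, 1.19 and 1.18 in control and 2.27, 2.48 and 2.17 in knockdown libraries.

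Of the VGLL genes, Vgll2 was nearly lost, and Vgll3 and Vgll4 did not pass with 6 libraries. Vgll2 (ENSMUSG00000049641, chromosome 10, 52022502 to 52028471, plus strand) had 157, 125 and 192 reads in control libraries, or normalised counts of 171, 158 and 182, and 1, 0 and 2 reads in knockdown libraries. The ratio of the summed reads, 474 against 3, scaled by the size factors, was 189-fold lower (exact 95% binomial counting interval 64.1 to 918, which covers counting error only and is too narrow if mates were counted separately). The adjusted p was 1.5e-04, and without knockdown library 3 the knockdown reads were 1 and 0. Vgll2 was the least abundant gene of the set in control cells, at 103 ± 7.44 per kilobase (SD, n = 3), and it passed the filter on low values only through its control libraries.

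Vgll3 had control counts of 1716, 1465 and 1584 and knockdown counts of 1742, 1649 and 1127. The groups overlapped, and the log2 change was -0.10 ± 0.19 (adjusted p = 0.71, 95% interval -0.58 to 0.38), or 0.10 ± 0.07 without knockdown library 3 (adjusted p = 0.24). Vgll4, the repressor, had control counts of 2152, 2030 and 2030 and knockdown counts of 3138, 3156 and 1680. Knockdown libraries 1 and 2 lay above every control library and library 3 lay below. With 6 libraries the log2 change of 0.30 ± 0.26 did not pass (adjusted p = 0.39), and without library 3 it was 0.60 ± 0.05 (adjusted p = 1.6e-06). Relative to the summed TEAD level in the same library, Vgll4 stood at 0.115 to 0.123 in control and at 0.610 to 0.668 in knockdown libraries. The size of this ratio depends on the length used: with the longest transcript its means were 0.228 in control and 1.04 in knockdown cells. The remaining gene of the family, Vgll1, was looked for by symbol, was not found and so was not analysed here.

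Amotl2 (ENSMUSG00000032531, chromosome 9, 102716672 to 102733418, plus strand) had control counts of 9292, 8247 and 8954 and knockdown counts of 9235, 8950 and 4938. Libraries 1 and 2 of the knockdown lay within the control range. The log2 change was -0.25 ± 0.26 (adjusted p = 0.48, 95% interval -0.89 to 0.39), and 0.04 ± 0.06 without knockdown library 3 (95% interval -0.08 to 0.17). Ranked per kilobase over all 10 genes, the control order was Wwtr1, Tead4, Amotl2, Tead1, Yap1, Vgll4, Tead2, Tead3, Vgll3 and Vgll2, in which only the neighbours Tead1 and Yap1 overlapped. In knockdown cells Tead4 moved from rank 2 to rank 9, and Amotl2, at 1226 ± 382, overlapped with Wwtr1 at the top. Ranks depend on the length used. With the longest transcript in place of all exons, Vgll4 took rank 4 in the control and overlapped with Yap1. With that length, Amotl2 took rank 1 in knockdown cells (1741 ± 543) and Wwtr1 rank 2 (1347 ± 448), and the 2 overlapped.

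In all, 5 of the 10 genes were lower and 0 higher at an adjusted p under 0.05. Of all genes tested, 45.2% were called, 23.5% lower and 21.7% higher. Excluding Vgll2, which had to differ to pass the filter, 4 of 9 were lower. The unadjusted p was under 0.05 for 5 members. By edgeR 5 members were lower and 0 higher, where 22% of all genes were lower and 23.2% higher. The groups did not overlap for 6 of the 10 genes, all lower in the knockdown, against 62.6% of all genes (32.7% lower and 30% higher). These 6 include Vgll2, whose groups had to be apart to pass the filter. The median log2 change of the set, Vgll2 included, was -0.58, beside -0.0013 for all genes tested.

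Leaving out knockdown library 3 raised the number of calls both in the set and among all genes. The 5 falls were still called, and Yap1 and Vgll4 joined as 2 rises, where 78.5% of all genes were called (38.6% higher and 39.9% lower). By edgeR without that library the members' calls were the same 7, where 79.7% of all genes were called (39.9% higher and 39.8% lower). The median log2 change of the set was then -0.25. In the authors' deposited table, 5 members had an adjusted p under 0.05, namely Tead1, Tead2, Tead4, Wwtr1 and Vgll2. All had negative log2 changes, such as -4.56 for Tead4. The share of all genes under 0.05 by the authors' test was not computed, so this count cannot be set against it.

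**Figure D3:**
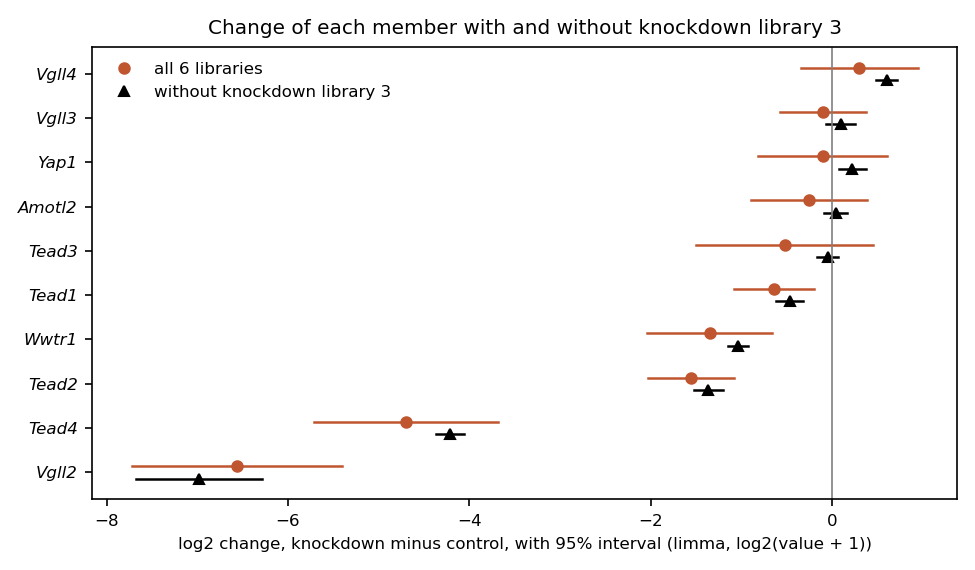
Log2 change of each gene, knockdown minus control, with its 95% interval, for all 6 libraries (circles) and without knockdown library 3 (triangles). Intervals are wide with 6 libraries and narrow without library 3, and Yap1 moves from -0.10 to 0.23.

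Muscle RNA was also lower in the knockdown libraries. A difference shared between the groups does not show that the falls in the TEAD set and the loss of muscle RNA are linked. In bulk RNA, fewer cells of a type and less RNA per cell cannot be told apart. Of 8 markers of myoblasts and myotubes (Myod1, Myf5, Myog, Des, Mymk, Myh3, Ckm and Tnnt3), 7 were lower and Myf5 was higher, a call lost with single libraries left out (adjusted p up to 0.103). Their summed normalised count was 743100 to 758100 in control and 7527 to 8205 in knockdown libraries. Of 6 fibroblast markers 4 were measured, and their sum was 22300 to 22670 in control and 101500 to 161000 in knockdown libraries, with Dcn higher and the others (Pdgfra, Pdgfrb and Lum) not called. Without knockdown library 3, Pdgfra and Pdgfrb were higher too and Lum was lower. Of 4 adipocyte markers 1 was measured, the regulator Pparg, which was higher (log2 1.28 ± 0.18). The other marker genes of these cell types were looked for, were not found and so were not analysed here. Markers of endothelial cells (Pecam1 and Tek), white blood cells (Cd68 and Csf1r) and epithelial cells (Cdh1 and Krt8) summed to at most 124.1 per cell type in any library. Pecam1 stood at 68.2 in knockdown library 3 and at 1.90 to 4.97 in the others, and Csf1r at 72.7 in knockdown library 3 against 8.29 and 9.20 in knockdown libraries 1 and 2. Tek (2.18 to 4.75 in control, 13.3 to 22.4 in knockdown) and Krt8 (22.7 to 27.6 in control, 0.836 to 5.59 in knockdown) each passed the filter on low values only through the group where they were high. The part of these shifts in the changes of the TEAD set was not tested.

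Genes upstream in the Hippo pathway were called about as often as genes in general, in both directions. Of 23 genes of the kinase cascade and its regulators, 5 were higher and 4 lower (39.1%, against 45.2% of all genes), with a median log2 change of 0.04. Wwc1 passed the filter on low values only through its knockdown libraries, and of the other 22 genes 4 were higher and 4 lower. Stk3, the gene of the kinase MST2, had control counts of 1789, 1742 and 1788 and knockdown counts of 3116, 3177 and 3918, and it rose by 0.93 ± 0.13. Its paralog Stk4, the gene of MST1, fell from 2177, 2272 and 2128 to 1171, 1086 and 872, a log2 change of -1.08 ± 0.14. Mob1b, a scaffold of the LATS kinases, fell (-2.10 ± 0.11), while its paralog Mob1a stood at 0.50 ± 0.31 (adjusted p = 0.24). Mob1a was called higher without knockdown library 3, at 0.85 ± 0.05 (adjusted p = 5.8e-08). Mob1a, Lats1 and Lats2 were named after their values were seen.

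The KIBRA-family genes Wwc1 and Wwc2, whose proteins activate LATS, were both higher. Wwc1 stood at 2.18, 8.84 and 4.75 in control and at 595, 622 and 344 in knockdown libraries (log2 6.48 ± 0.48), and Wwc2 rose by 0.94 ± 0.11. Fat4, an atypical cadherin, rose by 2.70 ± 0.57, with knockdown counts of 8658, 8098 and 2026 and a log2 change of 3.38 ± 0.08 without library 3. Map4k4, a kinase that can act beside MST, fell (-0.73 ± 0.12), and so did Amotl1, a relative of Amotl2 (-0.75 ± 0.17, adjusted p = 0.014, and up to 0.064 with 1 library left out). The YAP kinases Lats1 and Lats2 did not pass with 6 libraries, at 0.35 ± 0.27 and 0.28 ± 0.27. Both were called higher without knockdown library 3, at 0.65 ± 0.07 and 0.59 ± 0.06 (adjusted p = 1.8e-05 and 5.4e-06). Without knockdown library 3, 15 of the 23 genes were higher and 7 lower, where 38.6% of all genes were higher and 39.9% lower.

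Proteins that hold YAP and TAZ in the cytoplasm or lead to their breakdown were covered by 11 genes, of which 2 were higher and 2 lower (36.4%, against 45.2% of all genes). The 14-3-3 gene Ywhaq rose (1.08 ± 0.15). The 14-3-3 genes Ywhag and Ywhah fell (-1.27 ± 0.32 and -0.42 ± 0.13), and Sfn, a 14-3-3 gene at 20.2 to 21.9 in control libraries, was higher by 1.26 ± 0.40. Of these 4, only Ywhaq kept its call with each library left out in turn. The adjusted p values of Ywhag, Ywhah and Sfn reached 0.076, 0.13 and 0.13. Without knockdown library 3, 6 of the 11 genes were higher and 3 lower (81.8%, near the 78.5% of all genes). Csnk1d, Csnk1e, Btrc and Fbxw11, of the kinases and ligase subunits that mark YAP and TAZ for breakdown, named after their values were seen, did not pass with 6 libraries. Without knockdown library 3 they were called higher, at 0.63, 0.19, 0.21 and 0.30 (adjusted p of 1.5e-06 to 0.0061).

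Target genes of YAP/TAZ and TEAD were also split. A widely used signature of such targets, without Amotl2, had 21 genes (Lats2 and Ptpn14 are also among the Hippo genes above), of which 6 were higher and 4 lower (47.6%, beside 45.2% of all genes), with a median log2 change of 0.28. Igfbp3, which encodes a secreted binder of insulin-like growth factors, was at 26.6 to 41.7 in control and 42760 to 60737 in knockdown libraries, a log2 change of 10.69 ± 0.23. F3, tissue factor, rose by 3.73 ± 0.18 and Crim1, a membrane protein that binds BMPs, by 2.87 ± 0.19. Ccdc80, a matrix protein, rose by 1.42 ± 0.15. Ankrd1, a muscle ankyrin-repeat protein, had control counts of 12746, 9983 and 13427 and knockdown counts of 2976, 2929 and 8461, a log2 change of -1.51 ± 0.44 (adjusted p = 0.033), or -2.02 ± 0.10 without knockdown library 3. Tgfb2, Gadd45a and Nuak2 fell (-0.50 ± 0.13, -0.70 ± 0.21 and -1.03 ± 0.32).

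These 4 falls lost their call when single libraries were left out, with adjusted p values up to 0.0875 for Tgfb2 and 0.109 to 0.125 for the others, and edgeR called 2 targets lower. Ctgf and Cyr61, matrix genes often read as YAP activity and named here after their values were seen, stood at 0.62 ± 0.13 (adjusted p = 0.0094) and 0.30 ± 0.16 (adjusted p = 0.17). Cyr61 was called higher without knockdown library 3, at 0.42 ± 0.07 (adjusted p = 2.7e-04). Without knockdown library 3, 15 targets were higher and 4 lower (90.5%, against 78.5% of all genes). With any 1 other library left out, 5 or 6 targets were called in all, of which 5 were higher. The share of all genes called in those fits was not computed, so these counts cannot be set against it.

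**Figure D4:**
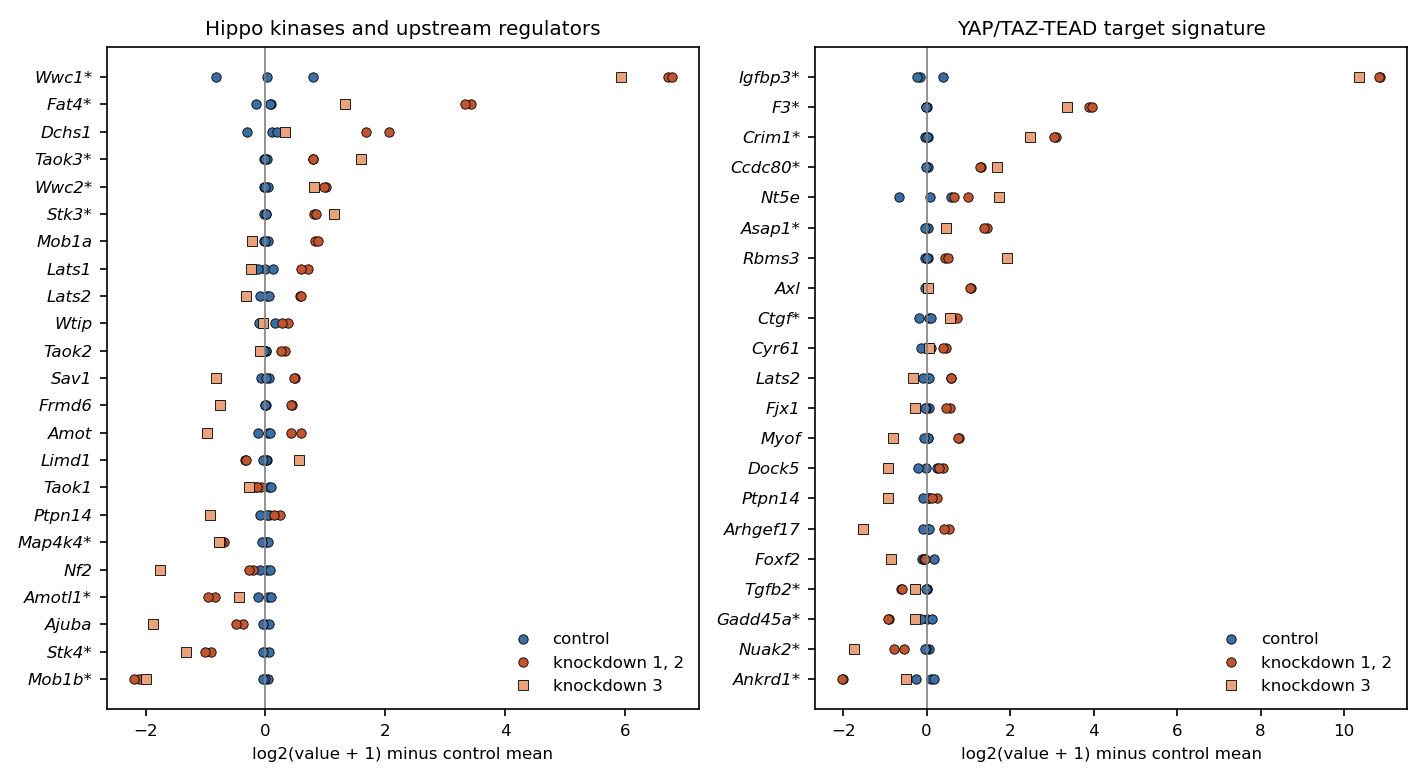
Log2(value + 1) minus the control mean for each library, for 23 Hippo genes (left) and 21 YAP/TAZ-TEAD targets (right), ordered by log2 change; squares mark knockdown library 3 and asterisks mark genes called with 6 libraries. Both lists hold genes on either side of 0, and knockdown library 3 often lies on the other side of the control from knockdown libraries 1 and 2.

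Muscle genes known for M-CAT elements fell. All 5 (Tnnt2, Acta1, Myh6, Myh7 and Acta2) were lower, where 23.5% of all genes were. All 5 were also lower without knockdown library 3 and in edgeR. They are muscle genes, and 7 of the 8 markers of myoblasts and myotubes above were lower too. Whether the M-CAT elements had a part in these falls was not tested. Cardiac troponin T, Tnnt2, had control counts of 184530, 181960 and 193640 and knockdown counts of 706, 571 and 1126 (log2 -7.92 ± 0.26). Skeletal actin, Acta1, and the slow and cardiac myosins Myh7 and Myh6 fell likewise (-7.64 ± 0.21, -7.80 ± 0.31 and -7.22 ± 0.20). Smooth muscle actin, Acta2, named after its value was seen, fell less, from 222310 to 254670 in control to 75681 to 81607 in knockdown libraries (-1.63 ± 0.20).

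The M-CAT letters stood before the RefSeq starts of genes that changed in opposite directions, which is why 4 windows are set side by side. Tnnt2 and Ankrd1 were lower, Crim1 was higher and Cyr61 did not pass with 6 libraries. All 250 bases before the Ankrd1 start lay in annotated exons, against 28 for Crim1 and 0 for Tnnt2 and Cyr61. Of the signature genes, 14 had a start window and 5 of them held the letters. The 5 muscle genes were chosen for these elements, so their matches are no finding.
Tnnt2 (chr1:135836295-135836324, plus strand, 27 bases before the start): tctcctgctgcaCATTCCtccctccgcggg
Ankrd1 (chr19:36119950-36119979, minus strand, 123 bases before the start): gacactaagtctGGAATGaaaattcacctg
Crim1 (chr17:78200157-78200186, plus strand, 79 bases before the start): agggcgggggggGGAATGaggtaggatggg
Cyr61 (chr3:145650071-145650100, minus strand, 103 bases before the start): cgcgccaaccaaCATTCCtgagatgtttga

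Patterns close to Tead4 and Yap1 were sought by the root mean square difference between log2 deviations from the control mean over the 6 libraries, among 11052 genes whose mean reached 100, predicted and mitochondrial genes left out. Nearest to Tead4 were Adam12 (0.14), Sorcs2 (0.14) and Cemip (0.15). Adam12 had control counts of 6449, 6690 and 5734 and knockdown counts of 301, 292 and 135. Nearest to Yap1 were Zfp664, Rnf19a and Dcaf5 (0.031, 0.032 and 0.043). Zfp664 had knockdown counts of 3425, 3346 and 1644, with library 3 low, as for Yap1. These are descriptions over 6 libraries that share the group difference.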

How the data were processed

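RNA of 6 C2C12 libraries (3 control, 3 Adamtsl2 knockdown) was analysed. Per the labels' protocols, poly(A) RNA was sequenced as paired 150 bp reads. Per the submitters' processing notes, Trimmomatic 0.36, featureCounts (Subread 1.5.2), DESeq2 and GRCm38 were used; no source used here gives the aligner, annotation or strand setting, or says whether the mates of a pair were counted separately. The deposited table gives a normalised signal for each gene in each library and, per the file headers, the authors' own log2 fold change, p-value and adjusted p-value. All values (100%) were whole multiples of 1 read within 0.01 reads, so each library's signal is its gene count times 1 factor and whole reads were recovered; edgeR called 7344 genes on them. Positions and exonic lengths came from GENCODE M21 (GRCm38, 16806 genes matched by identifier), and start windows from RefSeq.

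Normalised values were tested with limma 3.58.1 (R 4.3.3) on log2(value + 1) with a trend, two-sided, Benjamini-Hochberg adjusted over the 16245 genes reaching 10 in 3 or more libraries (609 did not). Sums and shares had an exact permutation test. The procedure was tested on simulated reads with the same spread in all libraries, so that test does not cover a library that stands apart. Chi-square per gene was 3.88 for the closest pair of replicates, above sampling noise, so none was counted as a duplicate. Alternatives were other filters, pseudocounts, TMM scaling, edgeR 4.0.16, DESeq2 1.42.0, a replicate block and each library left out; edgeR without knockdown library 3 was added after seeing the data. Named were all 10 genes, Adamtsl2 and Vgll1, the 4 genes of each list with the smallest adjusted p per direction and the 3 nearest patterns of Tead4, Yap1 and Vgll2; those of Vgll2 are not given, since the pseudocount sets its knockdown values. The genes and lists were chosen with earlier results of these data known. Exons of Tead2 and Yap1 share 13 and 116 bases with Cd37 and Gm20416.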

Additional observations from a re-analysis of the deposited data

How the results depend on the processing

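The count of 5 of 10 genes called was unchanged with other filters, pseudocounts of 0.5 and 5, TMM scaling, edgeR, DESeq2 and a replicate block, and was 4 to 7 with 1 library left out (7 with edgeR without knockdown library 3). Tead2, Tead4, Wwtr1 and Vgll2 kept direction and call under all 14 alternatives. Without knockdown library 3 the direction of the log2 change turned for Yap1 (0.227), Vgll3 (0.096) and Amotl2 (0.044); over all single libraries left out, these ran from -0.27, -0.218 and -0.408 up to those values. With 1 library left out, 7 to 22 Hippo genes, 1 to 9 retention and turnover genes and 5 to 19 targets were called. The highest of each came without knockdown library 3, where limma called 78.5% of all genes, against 45.2% with 6 libraries. The share of all genes called was computed only for limma and edgeR, with 6 libraries and without knockdown library 3. Counts under the other settings, those of the 10 genes included, cannot be set against such a share. With a replicate block 2 retention and turnover genes were called, and no other count moved by over 1.5 times. Same-numbered libraries deviated together at r = 0.0169, 0.105 and 0.143, and differently numbered ones at r from -0.147 to 0.116. Deviations were taken from a knockdown mean that includes library 3, so this check cannot settle whether the numbers mark pairs. They were not taken as pairs in the main test. With the longest transcript as length, the knockdown minus control difference was -2972 for the summed TEAD level (-2420 with all exons), -48.8 percentage points for the Tead4 share (-52.6) and 17.6 for the Yap1 share (13.3). TMM moved the median of all genes by 0.0075. Genes of few reads, such as Vgll2, are limited by depth. The cause of these shifts was not tested.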
